A study of Homo sapiens with 8 samples.

Results

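XPC, DDB2, XPA, ERCC5, POLH, POLK, GADD45A, GADD45B and GADD45G are 9 genes of nucleotide excision repair, DNA damage bypass and the GADD45 family. They were matched by transcript accession, and make up 9 of the 20292 genes named on the array. Where a gene had several probes, the one with the highest mean level over the 8 arrays was taken. All 9 probes were well above background on all 8 arrays, so no member was lost to the filter on dim probes.

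The study compared MCF10A, a non-tumorigenic human breast epithelial cell line, with its p53-/- derivative. Cells of both genotypes were left untreated (0 h) or received doxorubicin (adriamycin, ADR), a topoisomerase poison that breaks DNA, and their total RNA was collected 12, 24 and 48 h later. The sample labels give 0.5 µg/ml for 2 h, while the study's methods give a higher concentration. There was 1 array per genotype and time, 8 arrays in all, and whether the p53-/- cells are 1 clone is not given in the sources used here.

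Nucleotide excision repair removes bulky lesions such as ultraviolet photoproducts. XPC and the DDB2 complex find the lesion in chromatin, XPA checks it, and ERCC5 (XPG) is the endonuclease that cuts on its 3′ side. Where a lesion is met during replication, bypass polymerases such as POLH (polymerase eta) and POLK (polymerase kappa) copy past it. The GADD45 genes encode small acidic stress proteins that bind PCNA, CDK1, p21 and the kinase MAP3K4. XPC, DDB2, POLH and GADD45A are textbook targets of p53, a transcription factor stabilised by DNA damage.

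p53 binds a response element made of 2 half-sites of 10 bases with 0 to 13 bases between them. RefSeq promoter sequences of GRCh38.p14, from 250 bases before to 50 bases after each start, were searched for the best match to the p53 response element consensus. The C and the G of both half-site cores were required, and the consensus is the same on both strands. Of the 9 genes, 8 had an entry (all but GADD45A), with 9 windows in all. The stretches below are those of 4 genes that differed between the genotypes, so that the match in DDB2 can be set against the others, with both half-sites in capitals.
DDB2 (chr11:47214975-47215004, + strand): gtttGAACAAGCCCtGGGCATGTTTggcgg
GADD45B (chr19:2476015-2476039, + strand): GAGCTAGCTGcactcGCCCTTGTCT
XPC (chr3:14178658-14178687, - strand): TGACTAGGCCtccaacgaagGGGCGTGGCC
POLH (chr6:43576005-43576031, + strand): CAACTCGCGCtgggaagAAGCCGGCGC
The DDB2 stretch lies at the second of its annotated starts, 6 to 26 bases after it, and had 0 mismatches with a gap of 1 base. Only 10 of 35116 promoter windows, or 0.0285%, had a match with 0 mismatches. GADD45B had 3 mismatches, which 12.8% of windows equalled or bettered, XPC had 4 (35.4%) and POLH had 6 (86.6%). The other DDB2 start and ERCC5 had 5, XPA had 4, GADD45G had 6 and POLK had 8. A match of this kind is a description of the letters, and no match says only that such letters are not in these windows.

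Levels are given below as the log2 of the processed signal minus the log2 of the array's 75th percentile, so 0 is the level of the 75th percentile of all spots. The 75th percentiles ranged from 661 to 1199 in signal, and 49.8 to 62.9% of probes were well above background. The technical SD of a level, taken from 999 probes printed in 10 spots each, ranged from 0.024 to 0.063 for the 9 genes. It covers printing and scanning on 1 array, not separate cultures. All 8 arrays were on 1 slide with each genotype in a column of its own, so position on the slide and genotype cannot be told apart.

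Before the results, 1 array has to be set apart. The fibroblast marker DCN and the epithelial cadherin CDH1 read alike on the array labelled p53+/+ 0 h and on the p53-/- arrays. DCN was at 5.75 on that array, at 5.70 to 6.07 on the p53-/- arrays and at 2.09 to 2.37 on the treated p53+/+ arrays. CDH1 was at -3.13 on the array labelled p53+/+ 0 h, at -3.55 to -0.94 on the p53-/- arrays and at 1.42 to 2.10 on the treated p53+/+ arrays. For DCN and CDH1, the array labelled p53+/+ 0 h thus stood with the p53-/- arrays and apart from the treated arrays of its labelled genotype. The 6 arrays of treated cells are therefore compared first, and every change from that array is given with the same change from the p53-/- 0 h array. CDKN1A, which encodes p21, and MDM2, both targets of p53, were at 2.54 to 2.70 and at 1.29 to 1.76 on the treated p53+/+ arrays. On the treated p53-/- arrays they were at -0.96 to -0.48 and at -2.04 to -1.33. On the array labelled p53+/+ 0 h CDKN1A was at -1.14 and MDM2 at -1.66, against -2.97 and -1.33 on the p53-/- 0 h array. CDKN1A also rose in p53-/- cells, to 2.01, 2.33 and 2.49 (log2) above 0 h at 12, 24 and 48 h.

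Of 9 markers of basal breast epithelium, 8 were well above background on all 8 arrays, TP63 being above it on 3. At all 3 times, 5 of the 9 were at least 2-fold higher in treated p53+/+ than in treated p53-/- cells, against 6.76% of all genes, among them KRT5, KRT14, KRT17 and CDH1. The mean difference was -0.28 for TP63, 0.26 for KRT6A and 0.43 for EGFR, none of which passed. ITGB4 did not pass either, with 0.87 at 12 h, but stood at 2.15 and 2.67 at 24 and 48 h (mean 1.90). The log2 of the summed level of the 9 markers was 8.92 to 9.11 on the treated p53+/+ arrays and 7.79 to 7.96 on the treated p53-/- arrays. Of 11 markers of other cells, PGR and ADIPOQ were among those above background on no array, while of 8 that could be counted PECAM1, COL1A1 and DCN were at least 2-fold lower in treated p53+/+ cells, against 5.92% of all genes. In treated p53+/+ cells, no array had PECAM1 or COL1A1 well above background. The endothelial genes CDH5 and VWF differed by 0.22 and -0.07. The summed level of the 11 was 2.22 to 2.50 and 5.71 to 6.08 (log2) on the same arrays, nearly all of it DCN, whose own levels are given above. The part of these differences in the results below was not tested, and fewer cells of a type and less RNA per cell cannot be told apart.

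Treated p53+/+ cells held more RNA of XPC, DDB2, POLH and GADD45A than treated p53-/- cells at 12, 24 and 48 h, by at least 2-fold at each time. GADD45B ran the other way and was lower in p53+/+ cells. XPA, ERCC5 and POLK differed by less than 2-fold at every time, and GADD45G was higher in p53+/+ cells at 12 and 24 h and lower at 48 h. Thus 4 of 9 genes were at least 2-fold higher at all 3 times, beside 6.76% of the 15807 genes above background on at least 1 array. None of the 9 was at least 2-fold lower at all 3 times, against 5.92% of all genes, but GADD45B was so under median scaling and without scaling between arrays. All 3 treated p53+/+ arrays lay above all 3 treated p53-/- arrays for 5 of the 9 genes (the same 4 and ERCC5), as for 24.6% of all genes, and below them for GADD45B alone, as for 19.9%. Those 5 genes were also above the other 5 arrays (18.5% of all genes), and GADD45B below them (14.1%). The median of the mean difference was 0.51 (log2) over the 9 genes and 0.05 over all genes.

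**Figure D1:**
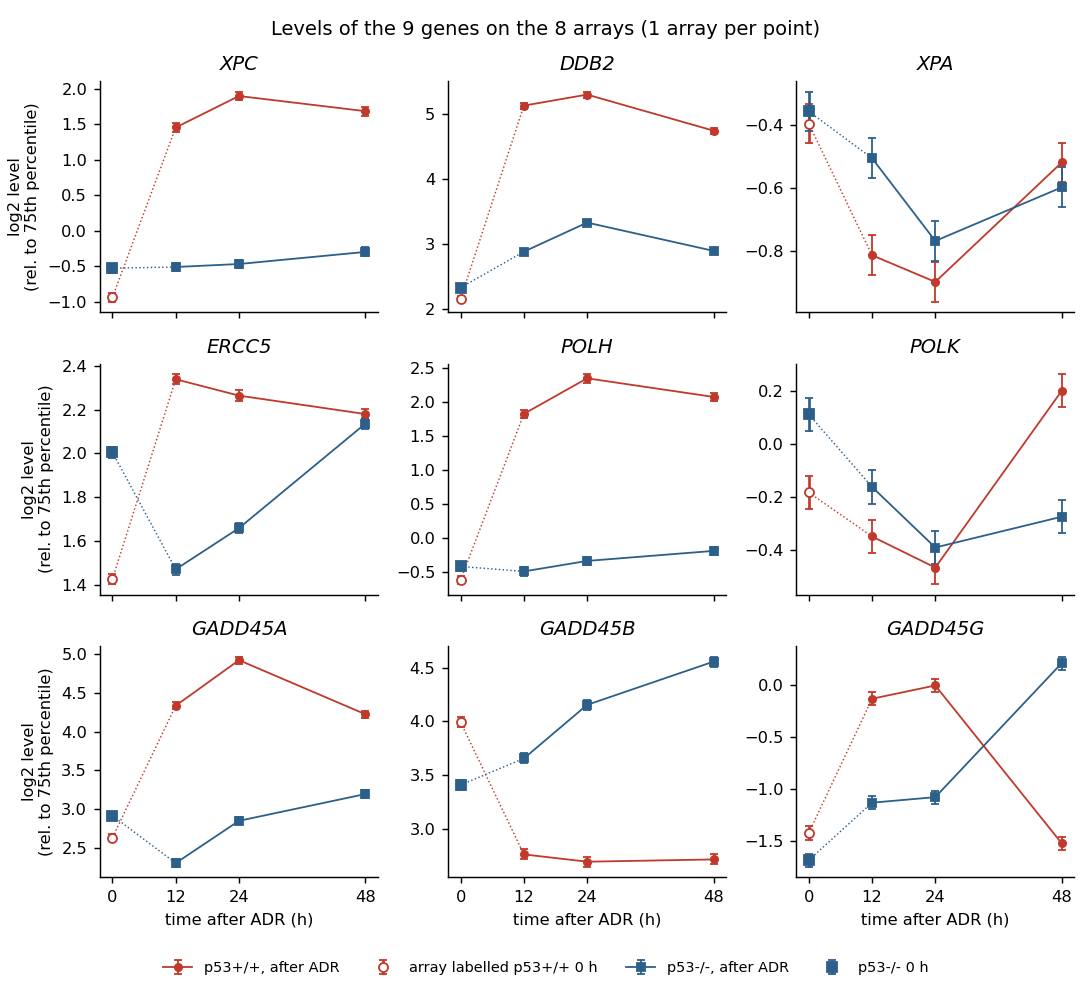
Level of each gene (y axis, log2 relative to the 75th percentile of the array, own range per panel) against time after ADR in h (x axis), 1 array per point. Red circles are p53+/+, with the array labelled p53+/+ 0 h open and joined by a dotted line, and blue squares are p53-/-; bars are the technical SD. XPC, DDB2, POLH, GADD45A and, narrowly, ERCC5 stand above all other arrays on the 3 treated p53+/+ arrays, GADD45B stands below them, and XPA and POLK overlap.

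The size rule carries no test, since each condition has 1 array. A limma fit of genotype over the 6 treated arrays, with Benjamini-Hochberg adjustment over 28947 probes, was run as well. The 3 times of a genotype served as its replicates there. The p-values therefore set the genotype difference against the movement over time, not against separate cultures. It called 5 of the 9 genes at an adjusted p under 0.05: XPC, DDB2, POLH and GADD45A higher and GADD45B lower. Of all probes it called 10.6% higher and 7.40% lower. Without the 24 h arrays it called 0 of the 9 genes and 292 of the 28947 probes. Benjamini-Hochberg adjusted p-values were then 0.0582 for POLH and 0.0689 for XPC and DDB2. The 5 genes called above had an unadjusted limma p under 0.05 in that fit, as did 5682 of all probes.

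Among the genes of lesion recognition, XPC was at 1.45, 1.90 and 1.68 on the p53+/+ arrays of 12, 24 and 48 h. On the p53-/- arrays it was at -0.51, -0.47 and -0.30. The 2 ranges lay 1.75 apart, and the lowest treated p53+/+ array was above all 5 other arrays. The difference between the genotypes was 1.97, 2.37 and 1.98 (log2), a mean of 2.11 or 4.30-fold, with a technical SD of 0.089 per difference. The limma SE of this mean was 0.19, with a Benjamini-Hochberg adjusted p of 0.00160. In p53-/- cells XPC moved little after ADR, by 0.02, 0.06 and 0.23 from the 0 h array.

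DDB2, the lesion-binding subunit of the damage-specific complex, was at 5.13, 5.30 and 4.75 on the treated p53+/+ arrays. On the treated p53-/- arrays it was at 2.88, 3.33 and 2.90. The arrays of the genotypes did not overlap and lay 1.42 apart. Treated p53+/+ cells exceeded treated p53-/- cells by 2.25, 1.97 and 1.85, a mean of 2.02 or 4.07-fold (limma SE 0.23, Benjamini-Hochberg adjusted p 0.00325). A second DDB2 probe gave 2.06, 1.71 and 1.14, with the same sign at each time and its lowest value at 48 h. DDB2 was also the only one of the 4 genes that stood above the p53-/- 0 h array at every treated p53-/- time by more than 0.5 (0.55, 1.003 and 0.57). The 24 h value was the only one of the 3 to reach 2-fold. DDB2 is the gene whose second promoter window holds the stretch with 0 mismatches shown above.

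XPA, which verifies the lesion and recruits the nucleases, showed no such pattern. It was at -0.81, -0.90 and -0.52 on the treated p53+/+ arrays and at -0.50, -0.77 and -0.60 on the treated p53-/- arrays. These overlapped, with differences of -0.31, -0.13 and 0.08 and a limma mean of -0.12 (SE 0.19, Benjamini-Hochberg adjusted p 0.710). Without scaling between arrays, or scaled on spike-in probes, its limma call was lower in p53+/+ cells. A second XPA probe was well above background on 5 arrays only, none of them a treated p53+/+ array.

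ERCC5 was at 2.34, 2.26 and 2.18 on the treated p53+/+ arrays and at 1.47, 1.66 and 2.14 on the treated p53-/- arrays. The 2 sets did not overlap, but the gap between them was 0.04, and the difference shrank from 0.87 at 12 h to 0.61 and 0.04. The mean of 0.51 did not pass the test (limma SE 0.22, Benjamini-Hochberg adjusted p 0.166), and without scaling between arrays its sign turned. The p53+/+ values spanned only 0.16 (log2), so most of this narrowing lay in the p53-/- arrays, which spanned 0.67. Transcripts that run from BIVM into ERCC5 overlap this gene and cannot be told apart from it here.

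Of the bypass polymerases, POLH had the widest mean genotype difference of the 9 genes at the scaling used, while without scaling that of GADD45B was wider (-1.99 against 1.82). It was at 1.83, 2.35 and 2.08 on the treated p53+/+ arrays and at -0.49, -0.33 and -0.18 on the treated p53-/- arrays. The groups lay 2.02 apart. Differences of 2.32, 2.69 and 2.26 gave a mean of 2.42 or 5.36-fold (limma SE 0.21, Benjamini-Hochberg adjusted p 0.00123). A second, dimmer POLH probe gave 2.37 at 48 h, with a technical SD of 0.46. At 12 and 24 h it was not well above background on the p53-/- arrays, so no difference is given. That probe was well above background on 4 arrays, the 3 of treated p53+/+ cells and p53-/- 48 h. In p53-/- cells POLH, like XPC, moved by no more than 0.23 from 0 h.

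POLK, the other bypass polymerase, was at -0.35, -0.47 and 0.20 on the treated p53+/+ arrays and at -0.16, -0.39 and -0.27 on the treated p53-/- arrays. The sets overlapped. Its difference was -0.19, -0.08 and 0.47, which gave a limma mean of 0.07 (SE 0.23, Benjamini-Hochberg adjusted p 0.867). Only the p53+/+ array of 48 h stood above the untreated p53-/- array, by 0.09.

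**Figure D2:**
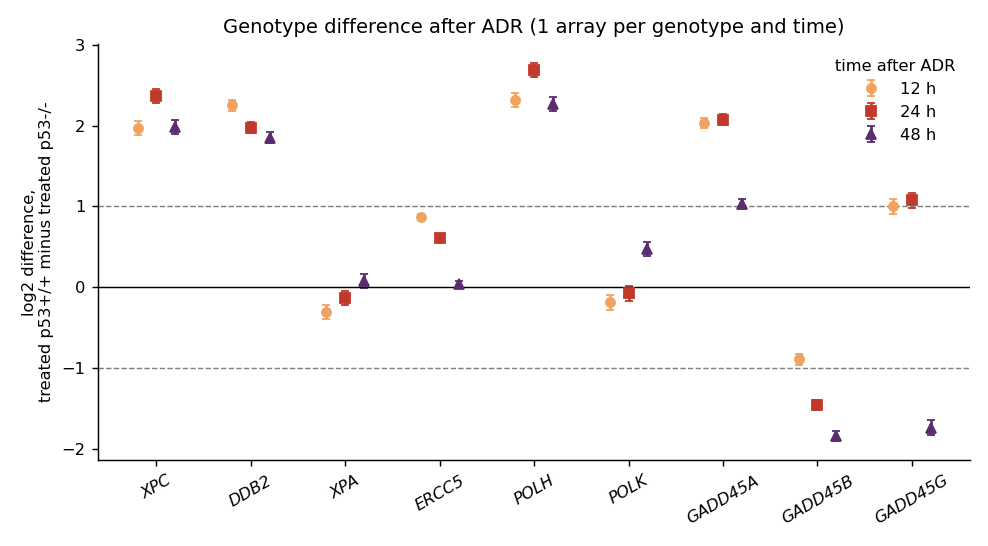
Difference between treated p53+/+ and treated p53-/- cells (y axis, log2) for each of the 9 genes (x axis), 1 array per genotype and time. Circles, squares and triangles are 12, 24 and 48 h, bars are the technical SD, and dashed lines mark 2-fold. XPC, DDB2, POLH and GADD45A lie above the upper line at all 3 times, and GADD45G lies on or just above it at 12 and 24 h and at -1.74 at 48 h.

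The GADD45 genes differed in direction. GADD45A was at 4.34, 4.92 and 4.22 on the treated p53+/+ arrays and at 2.30, 2.85 and 3.19 on the treated p53-/- arrays. The groups did not overlap, with a gap of 1.03. The difference was 2.03 and 2.07 at 12 and 24 h and 1.03 at 48 h, a mean of 1.71 or 3.28-fold (limma SE 0.31, Benjamini-Hochberg adjusted p 0.0139). That call was lost without the 12 h arrays (adjusted p 0.0610 in limma) and without the 24 h arrays (0.164), and also without scaling between arrays (0.0541) and with spike-in scaling (0.0501). The 48 h value rested at the edge of the 2-fold rule and came to 0.99, 0.89 and 0.98 under median scaling, quantile normalization and normexp background correction. Both genotypes contributed to the narrowing, with 0.70 less on the p53+/+ array and 0.34 more on the p53-/- array at 48 h than at 24 h.

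GADD45B was the only one of the 9 genes that the test called lower in treated p53+/+ cells. It was at 2.76, 2.70 and 2.72 there, a span of 0.07, and at 3.66, 4.15 and 4.56 on the treated p53-/- arrays. The highest p53+/+ array was 0.89 below the lowest p53-/- array. The difference widened with time, from -0.89 to -1.46 and -1.84, and its mean of -1.40 was a 2.63-fold lower level (limma SE 0.26, Benjamini-Hochberg adjusted p 0.0151). The call was lost without the 24 h arrays (adjusted p 0.189 in limma) and without the 48 h arrays (0.0645). It missed the size rule at 12 h, where its difference was past 2-fold under median scaling (-1.16) and without scaling (-1.34).

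GADD45G crossed over. It was at -0.14, -0.01 and -1.53 on the treated p53+/+ arrays and at -1.14, -1.08 and 0.21 on the treated p53-/- arrays. Thus it stood 2.00-fold and 2.11-fold higher in p53+/+ cells at 12 and 24 h, and lower by 1.74 (log2 difference -1.74) at 48 h. The 12 and 24 h values rested at the edge of the 2-fold rule. They came to 0.73 and 0.98 (log2) under median scaling and 0.91 and 1.01 under quantile normalization. Under normexp they were 0.91 and 0.92, and without scaling 0.55 and 0.59. A second, dimmer probe gave 1.36, 0.97 and -1.78, with the same signs but a technical SD of 0.65 per difference. The limma mean over the times was 0.11 with an SE of 0.53 and a Benjamini-Hochberg adjusted p of 0.909, and a mean over times describes this gene poorly. Neither 48 h array has a repeat, so the crossing rests on 1 array of each genotype. On the p53+/+ array of 48 h, no spike-in probe was above background.

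**Figure D3:**
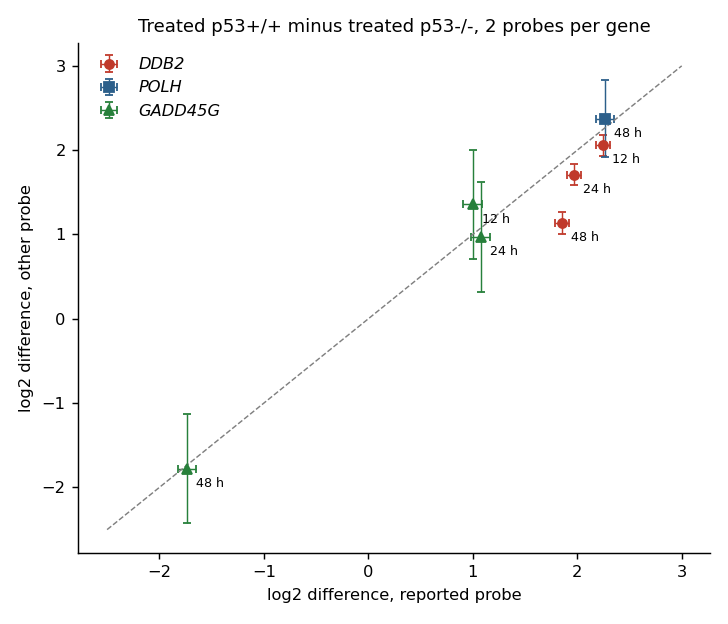
Log2 difference between treated p53+/+ and treated p53-/- cells from the reported probe (x axis) and from another probe of the same gene (y axis), for DDB2, POLH and GADD45G. Each point is 1 time at which the other probe was well above background in both genotypes (for POLH 48 h only), bars are the technical SD and the dashed line marks equal values. The sign was the same with both probes at every point shown.

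Against the array labelled p53+/+ 0 h, the same 4 genes stood at least 2-fold higher at all 3 treated times, where 9.53% of all genes did. The log2 difference was 2.39, 2.84 and 2.62 for XPC, 2.97, 3.14 and 2.59 for DDB2, and 2.44, 2.97 and 2.69 for POLH. For GADD45A it was 1.70, 2.29 and 1.59. Taken from the p53-/- 0 h array instead, the values were 1.98, 2.43 and 2.21 for XPC and 2.80, 2.97 and 2.42 for DDB2. For POLH they were 2.24, 2.77 and 2.49, and for GADD45A 1.42, 2.01 and 1.31. So these 4 genes passed the size rule at all 3 times from either untreated array, the second of which 9.55% of all genes passed.

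GADD45B was at least 2-fold lower (log2 differences -1.23, -1.30 and -1.28) on the treated p53+/+ arrays than on the array labelled p53+/+ 0 h. It is the only member that low at all 3 times, as 6.39% of all genes were. From the p53-/- 0 h array the differences were -0.65, -0.71 and -0.69, which do not reach 2-fold (0 of 9 genes did at all 3 times, against 6.79% of all genes), so this call rests on the array labelled p53+/+ 0 h. GADD45G stood 1.29 and 1.42 above the array labelled p53+/+ 0 h at 12 and 24 h and -0.10 from it at 48 h, and 1.55, 1.68 and 0.16 above the p53-/- 0 h array. ERCC5 was 0.91, 0.84 and 0.75 above that array but 0.33, 0.26 and 0.18 above the p53-/- 0 h array. XPA and POLK stayed within 0.58 of either untreated array.

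In p53-/- cells none of the 9 genes was 2-fold above or below the 0 h array at all 3 times, against 3.21% and 2.04% of all genes. Single times past 2-fold were DDB2 at 24 h, GADD45B at 48 h (1.15) and GADD45G at 48 h (1.90). GADD45B was higher at each later time, at 0.25, 0.74 and 1.15 above 0 h, and GADD45G likewise at 0.55, 0.61 and 1.90. GADD45A was at -0.61, -0.07 and 0.28 from 0 h.

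The 2 arrays of untreated cells, the array labelled p53+/+ 0 h and p53-/- 0 h, were less than 2-fold apart for all 9 genes, where 9.63% of all genes were at least 2-fold apart. The widest gaps were in ERCC5 (-0.58) and GADD45B (0.58), with the sign given as the array labelled p53+/+ 0 h minus p53-/- 0 h. XPC, DDB2, ERCC5 and POLH were lower on the array labelled p53+/+ 0 h than on any p53-/- array, and the other 5 genes lay within the p53-/- range.

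The difference of the changes from 0 h (change in p53+/+ minus change in p53-/-) averaged 2.52 for XPC, 2.62 for POLH, 2.19 for DDB2 and 1.99 for GADD45A. These 4 were at least 2-fold at all 3 times, as were 9.39% of all genes, and GADD45B was at -1.48, -2.04 and -2.42, where 8.76% of all genes were as low. In a limma fit of genotype, treatment and their interaction over the 8 arrays, the interaction passed for XPC (SE 0.39, Benjamini-Hochberg adjusted p 0.0370) and POLH (SE 0.42, adjusted p 0.0394). Of all probes, 1.69% passed it. It did not pass for DDB2 (adjusted p 0.0773), GADD45A (0.168), GADD45B (0.120) or ERCC5 (0.287). This fit has 1 untreated array per genotype, 1 of them the array labelled p53+/+ 0 h, and all its residual degrees of freedom come from the treated times. Its p-values therefore do not cover the spread of untreated cells.

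The pattern over the 8 arrays was compared between genes by the root mean square distance of their centred log2 levels, among 11825 other genes well above background on all arrays. These are descriptions over arrays that share their samples. The nearest gene to XPC was POLH, another of the 9 genes, at a distance of 0.15 (r = 0.997 over 8 arrays), followed by MAP3K9 at 0.16. Next to POLH itself were FOXP1 (0.12) and DGKA (0.14). DDB2 was nearest to ARHGAP5-AS1 (0.19) and INKA2 (0.21), and GADD45A to TRIM38 (0.13) and SP110 (0.16). GADD45B lay next to CCT5 and RNF122 (both 0.14) and ERCC5 next to H2BC15 (0.10) and NBR1 (0.11). The flattest members, XPA and POLK, had GNAI2 (0.053) and CDC34 (0.063), and RDH13 (0.073) and UBL3 (0.077). GADD45G had the most distant neighbours, CFAP58 (0.28) and PAPSS2 (0.30).

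Wider lists of the same pathways were counted by the 2-fold rule in treated p53+/+ against treated p53-/- cells. Of 29 other nucleotide excision repair genes, 0 were higher at all 3 times, against 6.76% of all genes, and 1 was lower. The median mean difference was -0.10. That 1 gene was RPA2, a subunit of the single-strand binding protein that coats the opened DNA, at -1.01, -1.30 and -1.90 with a mean of -1.40 (Benjamini-Hochberg adjusted p 0.0118 in limma). The 3.45% lower compares with 5.92% of all genes. The highest mean among the 29 genes was 0.56, against 2.11 for XPC and 2.02 for DDB2.

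Of 19 other translesion synthesis genes above background, 1 was higher (5.26%, against 6.76% of all genes) and 8 were lower (42.1%, against 5.92%), with a median of -1.10. The higher gene was REV3L, the catalytic subunit of polymerase zeta, at 1.53 and 1.67 at 24 and 48 h and at the edge of the 2-fold rule at 12 h (limma mean 1.40, SE 0.24, adjusted p 0.0121). The lower genes were MAD2L2, POLQ, RAD18, USP1, RFC2, RFC3, RFC4 and RFC5. RAD18 ubiquitylates PCNA to recruit bypass polymerases, and USP1 removes that ubiquitin. Mean differences were -1.31 for RAD18 (adjusted p 0.0307) and -2.17 for USP1 (adjusted p 0.00502). The RFC genes load PCNA, and RFC2, RFC3, RFC4 and RFC5 differed by -3.53, -3.82, -3.04 and -3.82 at 48 h but by between -1.71 and -1.08 at 12 and 24 h. The p53+/+ array of 48 h behind those values was the only array on which no spike-in probe was above background. On that array POLQ was not well above background. Limma did not call POLQ (adjusted p 0.163) or RFC5 (0.0712).

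Base excision repair, which removes small base lesions, had 0 of 20 genes higher, against 6.76% of all genes. It had 7 lower (35% against 5.92% of all genes), with a median of -0.66. The lower genes were the glycosylases OGG1, MUTYH, NEIL3, UNG and MBD4, the damage sensor PARP2 and the flap endonuclease FEN1. UNG, which removes uracil, differed by -2.45 (limma SE 0.22, adjusted p 0.00143), MBD4 by -1.77 (adjusted p 0.00279) and OGG1 by -1.57 (adjusted p 0.00591). FEN1 was not called by limma (adjusted p 0.0561). Among 10 genes whose products bind or act with GADD45 proteins, CDKN1A (mean 3.31) and MAP2K3 (mean 1.11) were higher (20%, against 6.76% of all genes). The cyclin CCNB1 (mean -2.80) was lower (10%, against 5.92% of all genes), and the median of the 10 was 0.22. Limma did not call CCNB1 (adjusted p 0.0510).

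**Figure D4:**
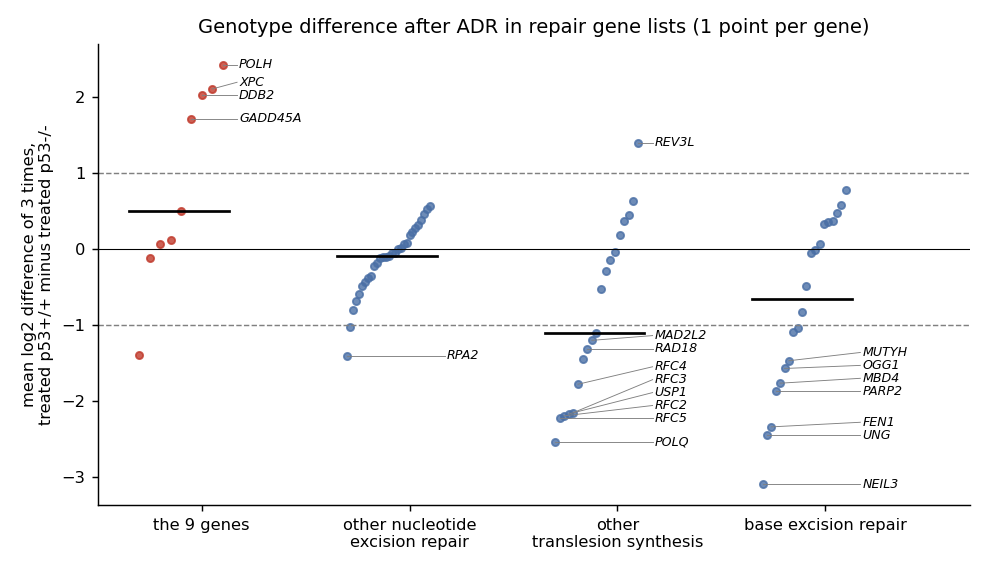
Mean log2 difference over 12, 24 and 48 h between treated p53+/+ and treated p53-/- cells (y axis) for the 9 genes and for 3 wider lists (x axis), 1 point per gene ordered by value. Black bars are list medians, dashed lines mark 2-fold and the named genes passed the 2-fold rule at all 3 times. The medians were 0.51 for the 9 genes, -0.10 for other nucleotide excision repair, -1.10 for other translesion synthesis and -0.66 for base excision repair.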

How the data were processed

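The authors hybridised Cy3-labelled RNA of 8 samples to Agilent SurePrint G3 arrays and deposited the Feature Extraction 10.7.3.1 output, per the file headers on build hg19. The deposited processed signal is an intensity on a linear scale, made by the authors' scanner software, which subtracted the background. The deposited series table held equal values (503808 of 503808). Genotype and time came from the sample labels.

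Of 62976 spots per array, 58717 were not controls. Uneven and outlier spots were left out, which removed 14 of 42405 probes. The log2 intensity minus the log2 75th percentile of the array gave the level of a spot, and a probe took the mean of its spots. Accessions named 27223 probes through a RefSeq table of GRCh38.p14, which gave 20292 genes. For a probe to be called well above background, a share above 0.5 of its spots had to be.

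Calls were differences of at least 2-fold at all 3 times. limma (lmFit, eBayes, Benjamini-Hochberg) was fitted on 28947 probes above background on at least 1 array, with 4 residual degrees of freedom, and was tested on simulated data. Precision is limited by the number of arrays. Every member is named, and of the wider lists the genes past the 2-fold rule, markers and label checks, and the 2 nearest profiles per member. A few items are not reported here. The members and lists were chosen with earlier results of these data known. Alternatives were other scalings, normexp (offset 50) on the median spot signal, other size rules, other probe summaries and filters, left-out times and other fits. Fits were run with limma 3.58.1 in R 4.3.3, and the rest in Python 3.11.15 (numpy 2.4.6, pandas 2.3.3, matplotlib 3.10.9).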

Additional observations from a re-analysis of the deposited data

Results flagged for a closer look

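XPC and POLH are listed because their change after ADR differed between the genotypes in a fit that can only be read with caution. The limma interaction of genotype and treatment over the 8 arrays was 2.52 (log2) for XPC, with a Benjamini-Hochberg adjusted p of 0.0370, and 2.62 for POLH, with an adjusted p of 0.0394. Of all probes, 1.69% passed this interaction. XPC and POLH were higher on 3 of 3 treated p53+/+ arrays than on any other array, as were 18.5% of all genes. The untreated state is 1 array per genotype with no repeat, so these p-values leave out the spread of untreated cells. Both values take the array labelled p53+/+ 0 h as the untreated state, which stood with the p53-/- arrays for DCN and CDH1.

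GADD45B was below the array labelled p53+/+ 0 h at all 3 times in p53+/+ cells and above p53-/- 0 h at all 3 times in p53-/- cells. The mean changes differed by -1.98 (log2). Of all genes, 11.1% had the same opposite signs. This untested difference in sign was the reason to list it, and its limma interaction did not pass (Benjamini-Hochberg adjusted p 0.120). From the p53-/- 0 h array the 3 changes in p53+/+ cells were also below 0.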

How the results depend on the processing

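The number of genes at least 2-fold higher in treated p53+/+ cells fell from 4 to 2 (XPC and POLH) without scaling between arrays. Under that setting and spike-in scaling the median of all genes moved from 0.05 to -0.55 and -0.58 (log2). The share of higher calls among all called genes was 53.3%, and 43.3% under median scaling, 19.99% without scaling and 21.3% with spike-in scaling at 12 and 24 h. limma called 5 of the 9 genes, and 0 without the 24 h arrays, where the same 5 had an unadjusted p under 0.05. That fit called 292 of 28947 probes. Without the 12 h arrays limma called 4 of the 9 genes and 2670 probes, and without the 48 h arrays 4 and 2571. Each fit that leaves out a time has fewer samples. Over 16 fits XPC, DDB2 and POLH passed in 15, GADD45B in 14 and GADD45A in 12. These include the reported fit and the fit over all 8 arrays, which gave the same values for the 9 genes and is no separate support. Lower genes of other nucleotide excision repair numbered 1, and 2 under median scaling or a 1.5-fold rule, 4 without scaling, 6 with spike-in scaling, and 0 under normexp or a 3-fold rule. The 1 higher translesion gene, REV3L, gave 0 under median scaling, quantile normalization, no scaling, spike-in scaling, normexp and a 3-fold rule, and the 8 lower ones gave 1 under a 3-fold rule. The 7 lower base excision repair genes became 12 with spike-in scaling and 2 under a 3-fold rule. The cause was not tested. Of the alternative values of the counts, 17 moved as given here and 125 stayed within 1.5 times the reported count. Many of the 125 were counts of 0 that stayed 0, and a kept count could hide changed genes. Under median scaling, quantile normalization and normexp the 4 higher genes became 3, without GADD45A. Without scaling and with spike-in scaling limma again called 5 genes, with XPA in place of GADD45A. Between treated genotypes the mean differences of ERCC5, POLK and GADD45G turned sign under some setting, and the other 6 kept theirs. The p53+/+ array of 48 h could not be scaled on spike-in probes. No replicate numbers are shared between samples, but arrays pair by time, and with time point as a block limma again called the same 5 genes (POLH adjusted p 0.00684, XPC 0.00885).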
